A study of Homo sapiens with 6 samples.

Results

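The 10 genes described here, ACLY, ACSS2, ACACA, ACACB, FASN, ELOVL5, ELOVL6, SCD, SCD5 and FADS2, make fatty acids in the cytosol and then lengthen or desaturate them. They were chosen by symbol through their Ensembl identifiers, and each matched 1 of the 60668 genes in the deposited table. All 10 passed the filter on low values, a mean normalized count of at least 1 over the 6 libraries. After 48 h in low glucose, 6 of them had fallen (FASN, SCD, ACLY, SCD5, ELOVL5 and ACACA), FADS2 had risen, and ACSS2, ACACB and ELOVL6 did not pass the test. Of all 21101 genes tested 16.2% fell and 14.7% rose. Among the called genes only FASN, SCD and ACLY kept their calls in all 15 alternative analyses. The call of FADS2 was lost in 8 of these, that of SCD5 in 6, that of ACACA in 3 and that of ELOVL5 in 1. The enzyme that assembles palmitate, FASN, fell by 43.9% (n = 3 libraries per condition).

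Fatty acid synthesis starts from cytosolic acetyl-CoA, which cells make from citrate or from acetate. Acetyl-CoA carboxylase turns it into malonyl-CoA, and fatty acid synthase adds malonyl units to a growing chain until palmitate is released. Elongases and desaturases in the endoplasmic reticulum then build the longer and unsaturated acyl chains of membranes and stored lipids. Many tumors, PDAC included, are known for active synthesis of this kind, and sterol regulatory element binding protein 1 (SREBP-1, encoded by SREBF1) and carbohydrate response element binding protein (ChREBP, encoded by MLXIPL) are textbook activators of these genes.

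The established human cell line MiaPaCa-2, derived from PDAC, was kept for 48 h in 2.5 mM glucose (low glucose, 3 libraries) or 25 mM glucose (control, 3 libraries), and total RNA was sequenced from strand-specific libraries. The submitters described the replicates as independent and biological. The treatment entry of every sample gives 2.5 mM, also for the control samples, whose titles call them control. Low glucose was made from glucose-free DMEM with glucose added back and control was the standard medium, so any other difference between the media cannot be told apart from glucose. The results come from 1 cell line, and because RNA was taken from whole cultures, fewer cells that make a transcript and less of it per cell cannot be told apart.

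The control libraries held 9741183 to 10190154 reads on genes and the low-glucose libraries 10595408 to 13733477. Low-glucose libraries had more genes with a read (22804 to 23259, against 21254 to 21706 in control) and a larger share of reads from the mitochondrial genome (4.65 to 5.12%, against 2.47 to 3.82%). Their part in the results below was not tested. Transcripts of the cell line were present in every library, with KRT8 (log2 fold change -1.01) and KRT18 (-0.74) lower and VIM (0.42) higher in low glucose by limma, and with ZEB1 not passing. The call of VIM was lost under quantile normalization (log2 fold change 0.21) and when the control library of 9741183 reads, or that of 10841656 or 10595408 reads in low glucose, was left out (adjusted p from limma of 0.0543 to 0.206). Of 12 markers of other cell types, 5 had no read in any library (PTPRC, INS, CPA1, PRSS1 and ADIPOQ). Their summed level ranged from 2811 to 3071 normalized counts over the control libraries and from 1937 to 1957 over the low-glucose libraries, mainly COL1A2, and their part in the results was not tested.

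In the rest of the text, a value is a normalized count, a read count that the authors divided by 1 size factor per library. Where a value is given for every library, the control libraries stand in the order of 9741183, 10126218 and 10190154 reads and the low-glucose libraries in the order of 10841656 (replicate 1), 10595408 (replicate 2) and 13733477 reads. A log2 fold change is low glucose minus control on the scale of log2(value + 1), which understates the change of low genes, with a standard error (SE) from limma and a p adjusted by Benjamini-Hochberg over the 21101 genes tested. A gene "fell" or "rose" where this p was under 0.05. Coordinates are on hg38 with Gencode v44 gene limits.

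The promoters of 9 of the 10 genes were in RefSeq's table for GRCh38.p14, as 250 bases before to 50 bases after the start. FASN had no entry, so no motif count below covers it. The stretches of 250 bases before the start are shown for the 3 of these genes whose windows hold a CCAAT box and lie in no annotated exon. All 3 fell. The window of FADS3, which rose and is not among the 10 genes, met the same terms and is not shown. Capitals mark each CCAAT on the printed strand or, as ATTGG, on the other. The ACLY stretch (chr17:41919023-41919272, minus strand) lies in an intron of the longer Gencode model of ACLY, while those of SCD (chr10:100346983-100347232, plus strand) and SCD5 (chr4:82798797-82799046, minus strand) lie in no Gencode gene.
ACLY: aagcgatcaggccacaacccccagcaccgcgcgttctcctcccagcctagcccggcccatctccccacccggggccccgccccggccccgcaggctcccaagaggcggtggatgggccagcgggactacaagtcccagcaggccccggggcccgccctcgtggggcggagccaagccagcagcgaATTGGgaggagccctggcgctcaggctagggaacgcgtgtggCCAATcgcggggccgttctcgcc
SCD: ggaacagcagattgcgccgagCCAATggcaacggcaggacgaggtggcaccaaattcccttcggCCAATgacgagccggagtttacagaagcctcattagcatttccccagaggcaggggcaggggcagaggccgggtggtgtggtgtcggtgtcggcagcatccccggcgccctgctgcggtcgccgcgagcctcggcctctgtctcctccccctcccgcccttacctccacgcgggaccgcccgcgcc
SCD5: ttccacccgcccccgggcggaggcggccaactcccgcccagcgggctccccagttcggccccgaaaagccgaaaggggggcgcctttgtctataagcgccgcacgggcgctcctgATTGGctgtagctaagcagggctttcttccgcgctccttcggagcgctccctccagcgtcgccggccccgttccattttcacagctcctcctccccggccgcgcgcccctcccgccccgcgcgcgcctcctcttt

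In these windows the CCAAT box, which factors such as NF-Y bind, ends 19 bases before the start of ACLY at the nearest, 182 bases before that of SCD and 131 bases before that of SCD5. On either strand CCAAT was in the windows of 5 of the 9 genes (ACLY, ACSS2, ELOVL5, SCD and SCD5), against 34.6% of all 35116 promoters in the table. By response, it was in 4 of the 5 genes with a window that fell (ACACA lacked it), in 1 of the 3 that did not pass (ACSS2), and not in that of FADS2. The windows of the desaturase genes FADS3 and FADS1, which are not among these 9 genes, were searched too. FADS3 rose (log2 fold change 1.17) and had 2 CCAAT boxes, while FADS1 rose (0.80) and had 0. Whether CCAAT goes with the direction of change was not tested. The GC box GGGCGG, a letter run that Sp1 can bind, was in 6 of the 9 windows, against 45% of all promoters. The E-box CACGTG, which ChREBP and USF proteins can bind in pairs, was in 1 window (ELOVL5), against 7.26%. The sterol regulatory element as TCACNCCAC was in 0 of 9, against 1.13%, and the ATF4-type letters TGATGNAA were in 0 of 9, against 3.62%. Both strands were searched for every motif, no motif contains the letters of another, and a match is a match of letters only.

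**Figure D1:**
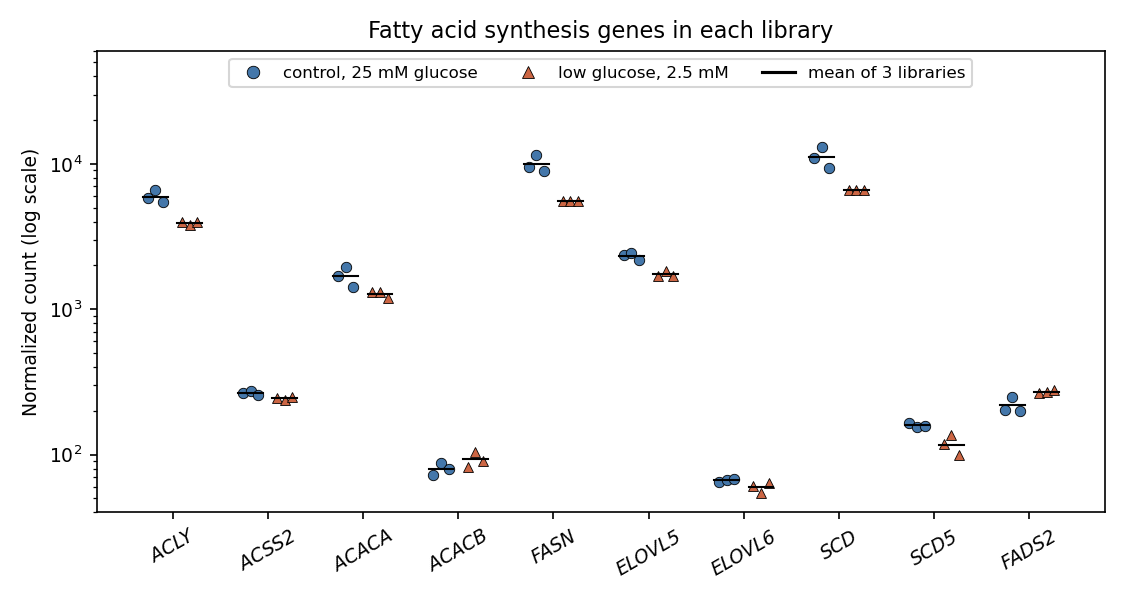
Normalized counts (vertical axis, log scale) of the 10 genes in each of 3 control libraries (circles, 25 mM glucose) and 3 low-glucose libraries (triangles, 2.5 mM), with a line at each mean. The low-glucose values of FASN (5547 to 5587) and SCD (6610 to 6618) nearly coincide and lie below all control values, and those of FADS2 (265 to 278) lie above.

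The genes of 2 routes to cytosolic acetyl-CoA were measured. ACLY (ENSG00000131473, chr17:41866917-41930542, minus strand), ATP citrate lyase, cleaves the citrate that mitochondria export. Its values were 5826, 6634 and 5423 in control and 3950, 3816 and 4011 in low glucose. All low-glucose values lay below all control values, and the mean fell from 5961 ± 617 to 3926 ± 99.8 (SD, n = 3 each). The log2 fold change was -0.60 (SE 0.0837), with an adjusted p of 9.44e-05 by limma. A long noncoding RNA on the other strand, ENSG00000274630, shares 156 bases of exon with ACLY. Its reads came to 7.31 to 9.49% of those of ACLY, and it fell as well (log2 fold change -0.73, SE 0.0998, adjusted p of 7.92e-05 by limma). The strand setting of the counting was not given in the sources used here.

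ACSS2 (ENSG00000131069, chr20:34872146-34927962, plus strand) is the cytosolic and nuclear synthetase that makes acetyl-CoA from acetate. Its values were 263, 275 and 258 in control and 244, 237 and 249 in low glucose. The groups did not overlap, but the difference was small, with means of 266 ± 8.91 and 243 ± 5.79 and a log2 fold change of -0.13 (SE 0.0992). It did not pass the test (adjusted p of 0.373 by limma), and its 95% interval ran from -0.34 to 0.09. The ratio of ACSS2 to ACLY was higher in every low-glucose library: 0.0619, 0.0622 and 0.0620, against 0.0452, 0.0415 and 0.0476 in control. It was 1.39-fold higher (log2 difference 0.47), at an exact two-sided permutation p of 0.1, which is the smallest that 3 against 3 libraries can give (0.15 adjusted over the 6 pairs compared).

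The carboxylase step is run by a pair of isozymes. ACACA (ENSG00000278540, chr17:37084992-37406836, minus strand) encodes the cytosolic acetyl-CoA carboxylase, whose malonyl-CoA feeds FASN. Its values were 1692, 1946 and 1415 in control and 1312, 1321 and 1193 in low glucose. The groups did not overlap, and the mean fell from 1684 ± 265 to 1275 ± 71.6, a log2 fold change of -0.39 (SE 0.102, adjusted p of 0.00948 by limma). The call was lost with quantile normalization (log2 fold change -0.20, adjusted p of 0.110 by limma), with a variance model without trend (0.115) and without the low-glucose library of 13733477 reads (0.0673).

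ACACB (ENSG00000076555, chr12:109116587-109268226, plus strand) encodes the carboxylase at the mitochondrial surface, whose malonyl-CoA restrains fatty acid import for oxidation. Its values were 72.9, 86.9 and 79.2 in control and 82.7, 105 and 90.9 in low glucose. These overlapped, with means of 79.7 ± 7.05 and 92.8 ± 11.1, and did not pass the test (log2 fold change 0.21, SE 0.161, 95% interval -0.13 to 0.56, adjusted p of 0.347 by limma). Within libraries the ratio of ACACB to ACACA was 1.52-fold higher in low glucose (log2 difference 0.61, exact permutation p of 0.1, adjusted 0.15), and the 3 low-glucose ratios lay above the 3 control ratios. ACACB was the least abundant of the 10 transcripts per length in control, and its counts of 65 to 120 reads per library limit what could be detected.

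FASN and SCD gave the largest changes among the 10 genes. FASN (ENSG00000169710, chr17:82078338-82098294, minus strand), fatty acid synthase, had values of 9446, 11430 and 8859 in control and 5561, 5547 and 5587 in low glucose. The control library of 10126218 reads was the highest, and the groups were far apart. Its mean was 9912 ± 1347 in control and 5565 ± 20.2 in low glucose, a log2 fold change of -0.82 (SE 0.0926, 95% interval -1.02 to -0.63, adjusted p of 1.38e-05 by limma). FASN fell more than ACACA in the same libraries: the ratio of FASN to ACACA was 0.741 of that in control (log2 difference -0.43, exact permutation p of 0.1, adjusted 0.15).

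Among the elongases, ELOVL5 fell and ELOVL6 did not pass. ELOVL5 (ENSG00000012660, chr6:53267398-53349179, minus strand) elongates polyunsaturated chains. Its values were 2352, 2421 and 2195 in control and 1705, 1825 and 1703 in low glucose, without overlap. The mean fell from 2323 ± 116 to 1744 ± 69.9 (log2 fold change -0.41, SE 0.0746, adjusted p of 0.000739 by limma), and quantile normalization brought the log2 fold change to -0.20 and ended the call (adjusted p of 0.0515).

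ELOVL6 (ENSG00000170522, chr4:110045846-110199199, minus strand) elongates palmitate and other saturated or monounsaturated chains. Its values were 65.0, 66.9 and 67.4 in control and 60.6, 54.3 and 63.6 in low glucose. These did not overlap, but at 55 to 84 reads per library the difference between 66.4 ± 1.25 and 59.5 ± 4.75 was not detectable (log2 fold change -0.16, SE 0.173, 95% interval -0.53 to 0.21, adjusted p of 0.534 by limma). The ratio of ELOVL5 to ELOVL6 overlapped between the conditions (log2 difference -0.25, exact permutation p of 0.2, adjusted 0.24).

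The desaturases moved in opposite directions. SCD (ENSG00000099194, chr10:100347233-100364826, plus strand), stearoyl-CoA desaturase, places the delta-9 double bond that makes oleate and palmitoleate. Its values were 11025, 13094 and 9309 in control and 6618, 6614 and 6610 in low glucose, again without overlap. The mean fell from 11143 ± 1895 to 6614 ± 3.96, a log2 fold change of -0.74 (SE 0.105, 95% interval -0.96 to -0.51, adjusted p of 0.000103 by limma). Its processed pseudogene SCDP1 had 1 read in all 6 libraries together.

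SCD5 (ENSG00000145284, chr4:82629539-82798796, minus strand), the other human delta-9 desaturase, was far less abundant. Its values were 165, 155 and 157 in control and 117, 135 and 98.5 in low glucose, without overlap. The mean fell from 159 ± 5.15 to 117 ± 18.4 (log2 fold change -0.45, SE 0.141, adjusted p of 0.0253 by limma). The call was lost in 6 of 15 alternatives: scaling by library size, no trend, DESeq2, and leaving out the control library of 9741183 reads, or that of 10841656 or 13733477 reads in low glucose (adjusted p of 0.0569 to 0.131). The ratio of SCD5 to SCD overlapped between the conditions, and its difference (0.29 on the log2 scale) had an exact permutation p of 0.3, also 0.3 after adjustment. That difference dropped to 0.14 without the control library of 10126218 reads and to 0.18 without the low-glucose library of 10595408 reads.

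FADS2 (ENSG00000134824, chr11:61792980-61867354, plus strand) encodes the delta-6 desaturase of polyunsaturated fatty acid synthesis, which can also desaturate palmitate. Its values were 204, 250 and 199 in control and 265, 271 and 278 in low glucose, so that every low-glucose value lay above every control value. The mean rose from 218 ± 27.9 to 271 ± 6.78 (log2 fold change 0.32, SE 0.114, adjusted p of 0.0427 by limma). This call was lost in 8 of 15 alternatives (adjusted p of 0.0756 to 0.140): quantile normalization, no trend, DESeq2 and leaving out any 1 library except the control library of 10126218 reads. The ratio of FADS2 to SCD was 0.0185, 0.0191 and 0.0214 in control and 0.0400, 0.0409 and 0.0421 in low glucose. It was therefore 2.09-fold higher (log2 difference 1.06, exact permutation p of 0.1, adjusted 0.15), the largest difference among the 6 pairs.

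FADS2 shares exon bases with a pair of neighbours, which bears on its count. The Gencode model of FADS2 has 49 bases of exon in common with FEN1 (chr11:61792911-61797238), a flap endonuclease gene on the same strand, and 490 bases with FADS1 (chr11:61799627-61829318) on the other strand. FEN1 had 173 to 541% as many reads as FADS2 and fell (1047 ± 57.2 to 498 ± 34.6, log2 fold change -1.07, SE 0.0854, adjusted p of 6.37e-07 by limma). FADS1 had 187 to 292% as many reads as FADS2 and rose (its values stand with the other desaturases), and how shared reads were divided in the deposited table was not stated; RSEM, which divides ambiguous reads among transcripts, is listed among the study's programs without a link to this table. The RefSeq starts of FADS2 (position 61816203, plus strand) and FADS1 (61817003, minus strand) are 800 bases apart.

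**Figure D2:**
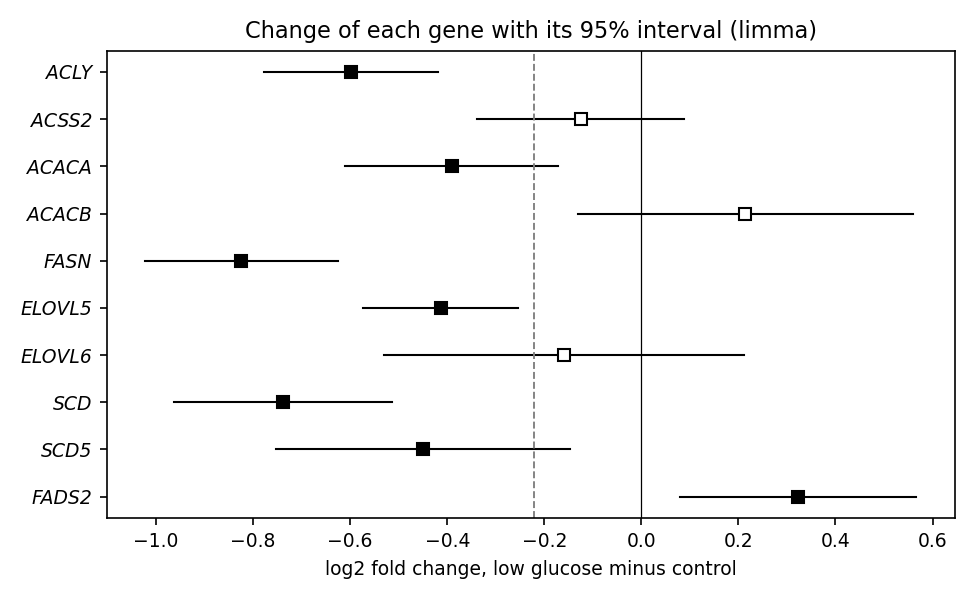
Log2 fold change (horizontal axis, low glucose minus control) of each of the 10 genes with its 95% interval from limma, filled where the gene passed the test and open where it did not; the dashed line is the median (-0.22) of all genes with a mean of at least 1000. The intervals of FASN, SCD, ACLY and ELOVL5 lie wholly below that median, and that of FADS2 lies above 0.

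By limma 7 of the 10 genes passed, 6 lower and 1 higher, against 30.9% of all genes tested in either direction (16.2% lower, 14.7% higher). Their median log2 fold change was -0.40, against 0.05 over all genes tested. By edgeR 7 of the 10 passed, against 42.8% of the genes it tested, and by DESeq2 5 passed, against 31.5%. All 3 low-glucose values lay below all 3 control values in 8 of the 10 genes, against 21.8% of genes tested, and above them in 1 (FADS2), against 22.1%; only ACACB overlapped.

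The background was higher among abundant genes. There were 2319 genes whose mean was at least 1000, of which 48.6% fell and the median log2 fold change was -0.22. Of the 10 genes, 5 were in this class (ACLY, ACACA, FASN, ELOVL5 and SCD), and all 5 fell. Of these abundant genes, 3.75% had a lower log2 fold change than FASN and 6.51% a lower one than SCD. For ACLY this share was 12.9%, for ELOVL5 28.4% and for ACACA 30.7%, so the falls of ELOVL5 and ACACA were within the range common at their abundance. Under quantile normalization, which brings the median of the abundant genes to -0.04, FASN, SCD, ACLY and SCD5 passed and no gene of the 10 rose.

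Per length, the 10 transcripts spanned a wide range. Reads divided by merged exon length and scaled to the same total in every library (TPM) gave, in control, SCD 641 ± 109, ACLY 345 ± 35.4, FASN 321 ± 42.7 and ELOVL5 184 ± 10.4 (mean ± SD, n = 3). ACLY and FASN overlapped in this order, while SCD lay above both and ELOVL5 below both. SCD was the gene with rank 176 among all genes by control TPM. The lower group ran from ACACA (39.0 ± 6.21) through ACSS2 (15.3 ± 0.542), SCD5 (11.3 ± 0.540), FADS2 (6.21 ± 0.769) and ELOVL6 (2.75 ± 0.0102) to ACACB (1.65 ± 0.128), without overlap between neighbours. In low glucose the order of the means was the same, but SCD5 (7.98 ± 1.17) and FADS2 (7.42 ± 0.226) overlapped. ELOVL6 (2.36 ± 0.214) and ACACB (1.85 ± 0.203) did not overlap. The order of the scarce genes depended on the length used. With the longest transcript as length, FADS2 lay above SCD5 in low glucose without overlap (11.9 ± 0.369 and 8.53 ± 1.26 TPM), and the mean of ACACB lay above that of ELOVL6 with overlap (1.96 to 2.45 and 1.82 to 2.17 TPM), while the order in control was the same as with merged exons.

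Summed over the 10 genes, the level per length was 1566, 1769 and 1363 TPM in control and 950, 937 and 956 TPM in low glucose. The mean fell from 1566 ± 203 to 948 ± 9.53 TPM without overlap (exact permutation p of 0.1, the smallest possible). SCD made up 40.8 ± 1.75% of this sum in control and 38.4 ± 0.0612% in low glucose, and FASN 20.5 ± 0.529% and 18.2 ± 0.0824%. The share of ELOVL5 was higher in low glucose (13.9 ± 0.540%, against 11.8 ± 0.956%), as were those of ACACA (2.98 against 2.48%), ACSS2 (1.41 against 0.982%), FADS2 (0.783 against 0.397%), ELOVL6 (0.249 against 0.178%) and ACACB (0.195 against 0.106%). Each of these 8 shares had an exact permutation p of 0.1 (0.125 adjusted over the 10 shares). For ACLY (22.1 and 23.0%) the exact permutation p was 0.2 (adjusted 0.222), and for SCD5 (0.732 and 0.843%) it was 0.4. The sizes depend on the length used: with the longest transcript the share of FADS2 was 0.739% in control and 1.44% in low glucose, and that of ACSS2 1.58 and 2.24%. Shares within a sum are not independent of each other, so a lower share of SCD raises the rest.

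**Figure D3:**
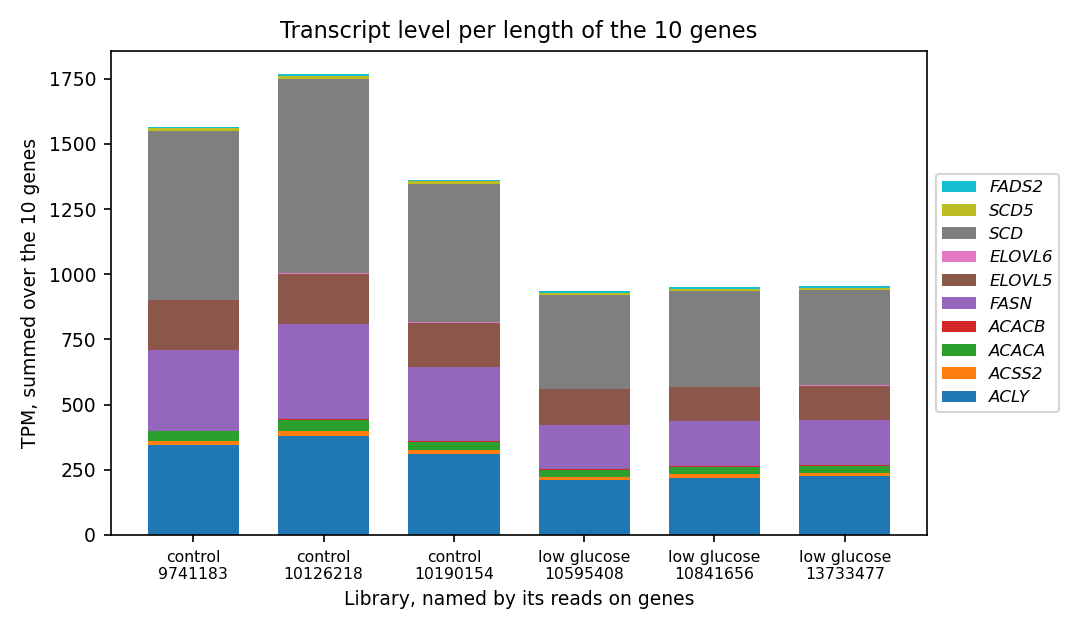
TPM of the 10 genes stacked in each library (1 bar per library, named by its reads on genes; colours mark genes). The control bars reach 1363 to 1769 and the low-glucose bars 937 to 956, with SCD, ACLY, FASN and ELOVL5 filling most of each.

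The conditions differed in spread as well as in level. The control library of 10126218 reads was the highest of the control libraries for 8 of the 10 genes, against 37.8% of all genes tested. The control SD of SCD was 17.1 times and that of FASN 12.9 times the SD that read counting alone would give. In low glucose, by contrast, the observed SD was below the counting SD for SCD (3.96 against 77.3) and FASN (20.2 against 70.9). A narrower spread in low glucose was general among abundant genes, with a median coefficient of variation of 3.16% in low glucose and 8.27% in control over these 2319 genes, whose mean was at least 1000. An SD over 3 libraries is itself imprecise, and limma shares its estimate of spread among genes. Leaving out the control library of 10126218 reads gave 7 calls among the 10 genes, as with all libraries.

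**Figure D4:**
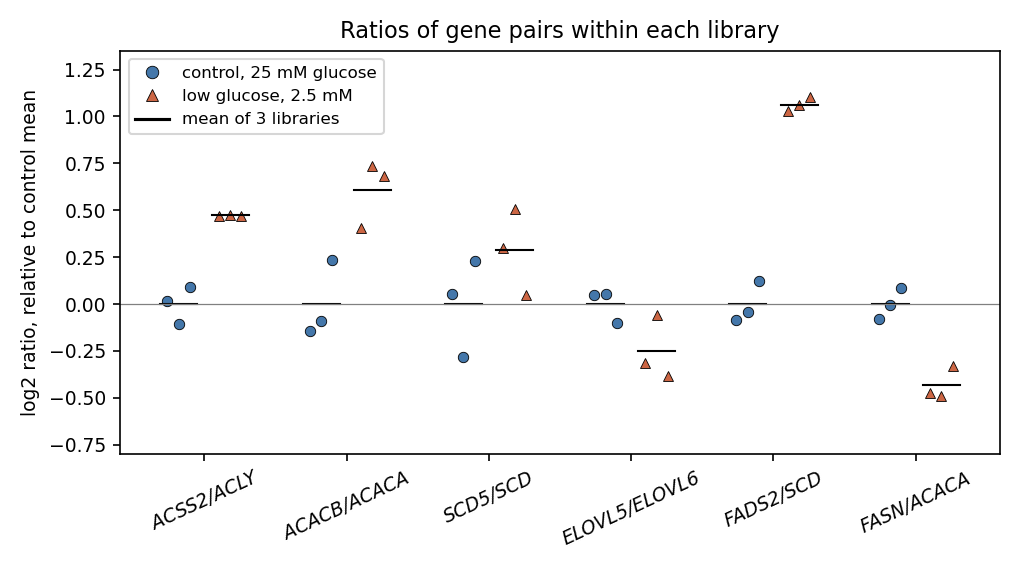
Log2 ratio of the normalized counts of 6 gene pairs in each library (vertical axis), relative to the control mean of the pair, for control (circles) and low glucose (triangles), with a line at each mean. The low-glucose points lie above all control points for ACSS2/ACLY, ACACB/ACACA and FADS2/SCD and below them for FASN/ACACA, and they overlap for SCD5/SCD and ELOVL5/ELOVL6.

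Other enzymes of the elongation cycle were lower or did not pass. Of 11 listed, 8 were tested, 3 fell and 0 rose, with a median log2 fold change of -0.24. TECR, the reductase that closes each cycle, fell by 0.51 on the log2 scale (SE 0.0752, adjusted p of 0.000151 by limma). Of the dehydratases, HACD3 fell by 0.40 (adjusted p of 0.000784) and HACD2 by 0.38 (adjusted p of 0.00489), the latter not under quantile normalization (adjusted p of 0.0858) or without the trend (0.0745). ELOVL3, ELOVL4 and HACD4 had no read in any library.

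The other desaturases and their electron donors were divided: of 11, 10 were tested, 3 rose, 3 fell and 4 did not pass, with a median of -0.15. FADS1, the delta-5 desaturase that acts after FADS2 and ELOVL5, had values of 451, 467 and 396 in control and 773, 783 and 726 in low glucose. FADS3, which desaturates sphingoid bases, had values of 265, 244 and 398 in control and 675, 624 and 697 in low glucose. Both rose without overlap, FADS1 with a log2 fold change of 0.80 (SE 0.0898, adjusted p of 1.39e-05 by limma) and FADS3 with 1.17 (SE 0.144, adjusted p of 3.10e-05), and both kept their calls in all 15 alternatives. Thus all 3 genes of the FADS cluster on chromosome 11 were higher in low glucose, the call of FADS2 with the exceptions given above. DEGS1, the dihydroceramide desaturase, fell by 0.40 on the log2 scale (adjusted p of 0.00177). CYB5R1, a cytochrome b5 reductase, rose by 0.45 (adjusted p of 0.0318), a call lost in 7 of 15 alternatives (adjusted p of 0.0560 to 0.162), which included leaving out any 1 low-glucose library or the control library of 9741183 reads.

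A further list of 12 genes was drawn up around the supply of carbon or NADPH and the turnover of malonyl-CoA. Of these 8 were tested, 1 rose and 0 fell, with a median of -0.08, against 14.7% higher and 16.2% lower over all genes tested. ME1, the malic enzyme that yields cytosolic NADPH, rose by 0.31 on the log2 scale (448 ± 28.9 to 557 ± 26.1, SE 0.0889, adjusted p of 0.0147 by limma), but not without the trend (0.0744) or without the low-glucose library of 10595408 (0.0518) or 13733477 reads (0.0839). SLC25A1, the carrier that exports the citrate used by ACLY, did not pass (log2 fold change -0.10, SE 0.0717, adjusted p of 0.298), and its sign turned to 0.08 under quantile normalization (adjusted p of 0.467).

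Among regulators of the pathway, 2 of the 15 tested rose, 7 fell and 6 did not pass (16 listed, median -0.24). SREBF1 fell from 2690 ± 187 to 1869 ± 38.5 (log2 fold change -0.52, SE 0.0759, adjusted p of 0.000125 by limma). INSIG1, which holds the SREBP complex in the endoplasmic reticulum and is itself an SREBP target, fell from 431 ± 18.9 to 268 ± 21.3 (log2 fold change -0.68, SE 0.0978, adjusted p of 0.000111). MLXIPL went the other way, from 78.9 ± 22.9 to 192 ± 20.1 (log2 fold change 1.31, SE 0.181, adjusted p of 8.61e-05). NR1H2, the liver X receptor beta that induces SREBF1 on oxysterol binding, rose by 0.48 on the log2 scale (SE 0.0840, adjusted p of 0.000619). The calls of SREBF1, INSIG1, MLXIPL and NR1H2 held in all 15 alternatives.

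The sterol branch, which SREBP-2 chiefly drives, had 5 of 8 tested genes lower and 0 higher (10 listed, median -0.41). TMEM97, a sterol-responsive membrane protein gene, fell by 0.50 on the log2 scale (SE 0.0866, adjusted p of 0.000520 by limma) and squalene epoxidase SQLE by 0.47 (SE 0.0923, adjusted p of 0.00141). Of the AMPK subunits, which form the kinase that phosphorylates acetyl-CoA carboxylase when energy is low, 6 of 7 were tested, 2 rose, 0 fell and the median was 0.24. These were PRKAB1 (log2 fold change 0.38, adjusted p of 0.00953 by limma) and PRKAG1 (0.35, adjusted p of 0.0164). The call of PRKAG1 was lost without the trend and when any 1 low-glucose library or the control library of 9741183 reads was left out (adjusted p of 0.0584 to 0.0861). RNA levels do not show the phosphorylation through which AMPK acts.

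**Figure D5:**
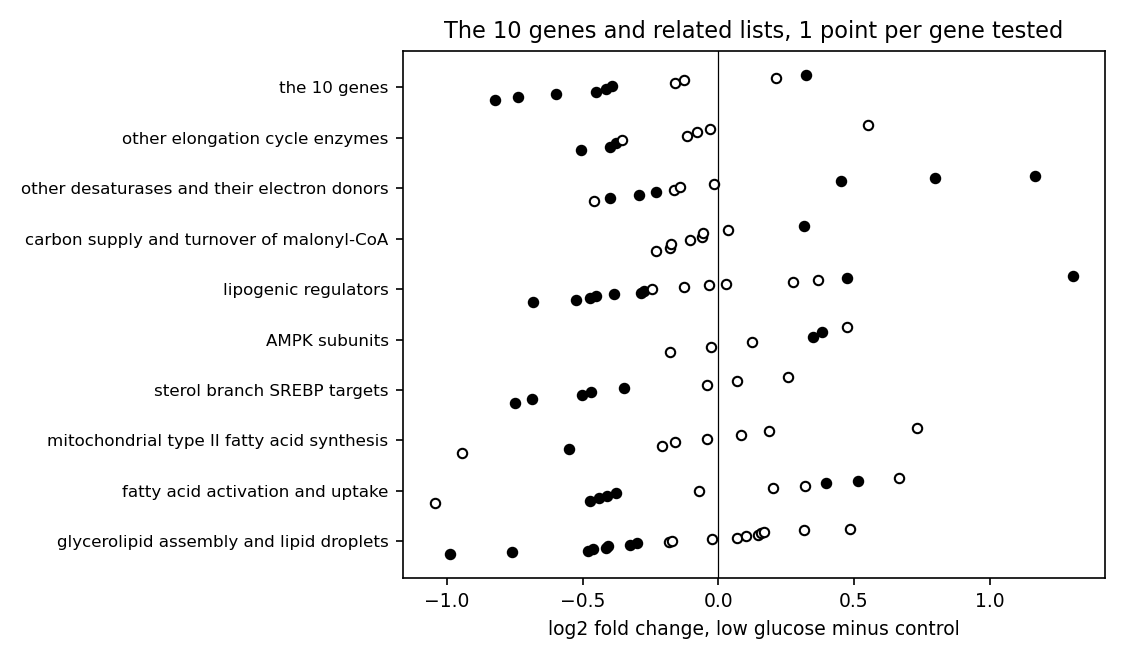
Log2 fold change (horizontal axis, low glucose minus control) of each tested gene among the 10 genes and in 9 related lists, 1 point per gene, filled where limma's adjusted p was under 0.05. The filled points of the elongation, sterol and glycerolipid lists lie below 0, while FADS1, FADS3 and MLXIPL are the highest filled points.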

How the data were processed

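RNA-seq of MiaPaCa-2 cells, 3 low-glucose and 3 control libraries, was analysed from 1 deposited table. According to the methods and processing notes, the authors trimmed paired reads with Trim Galore, mapped them to hg38 with STAR 2.7.0e and used DESeq2; RSEM is among the programs the study lists, but which tool counted this table, its strand setting and the annotation are not given in the sources used here. Each deposited value is a signal that keeps the scale of read counts, since the authors divided the count of each gene by 1 size factor per library. Whole multiples of 1 read (within 0.01) made up 100% of the values of each library, so reads could be recovered. There were 9741183 to 13733477 reads on genes per library, reads fell on 28454 genes, and Gencode v44 held 99.4% of the identifiers, from which names, exon lengths and coordinates were taken.

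Labels tie only low glucose replicates 1 and 2 to their columns. The remaining columns were grouped by the runs of their names and by the grouping set for this work, and carry no replicate number, so libraries are named by their reads.

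Values were analysed as log2(value + 1) for genes whose mean was 1 or more, in limma 3.58.1 (lmFit, eBayes with trend) in R 4.3.3, two-sided, Benjamini-Hochberg adjustment, threshold 0.05. Pair ratios and shares of TPM were compared with exact two-sided permutation tests, which cannot give a p below 0.1 with 3 against 3. On simulated data limma recovered 196 of 200 genes changed by 2-fold in low glucose against control, with 8 false among 204 calls (20087 genes tested). The simulation changed only genes above a floor in control and gave both groups the same spread per gene, unlike the real libraries. None of the 10 genes changed by as much as 2-fold (FASN most, log2 fold change -0.82). The recovery of smaller changes was therefore not measured. Alternatives were other scalings (library size, TMM, quantile), no filter, a mean of at least 10, a pseudocount of 0.1, no trend, edgeR 4.0.16 and DESeq2 1.42.0 on recovered reads, a minimum log2 fold change of 0.5 in size, leaving out each library, and, for the pairs and shares, a pseudocount of 1 and the longest transcript as length.

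All 10 genes were named. From each related list at most the 4 genes past the threshold with the largest absolute change were named, plus SREBF1, MLXIPL, INSIG1, SLC25A1, FADS1 and ME1, and genes sharing exons with the 10 were looked up. Some genes that this rule or the marker lists name are not reported here. The genes and lists were chosen with earlier results of these data known. Python 3.11.15, pandas 2.3.3, numpy 2.4.6, scipy 1.17.1 and matplotlib 3.10.9 were used. Other experiments of the study were not analysed here.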

Additional observations from a re-analysis of the deposited data

How the results depend on the processing

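No paired analysis was possible because only the libraries of low glucose replicates 1 and 2 could be matched to a number. FASN (log2 fold change -0.90 to -0.70), SCD (-0.86 to -0.62) and ACLY (-0.66 to -0.42) kept their direction and call in all 15 alternatives, with adjusted p of at most 0.0141, 0.0260 and 0.0213. Of the 10 genes 7 were called; 4 were called with quantile normalization and with no trend in the variance model, all lower, 3 (FASN, SCD and ACLY) with a minimum log2 fold change of 0.5 in size, and 4 to 7 when 1 library was left out, the fewest without the low-glucose library of 13733477 reads. The share of all genes called moved too, from 30.9% to 28.6% with quantile normalization and 19.4% with no trend. With 1 library left out it was 20.5 to 34.3% (22.3% without that of 13733477 reads). For the minimum log2 fold change of 0.5 in size, the share of all genes was not counted. Scaling by library size, which puts the median log2 fold change of all genes at 0.13, gave 6 of the 10 genes, against 31.1% of all genes.

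Over the 9 related lists, 41 of 92 genes tested were called (10 higher, 31 lower), against 30.9% of all genes (14.7% higher, 16.2% lower). When scaled by library size 15 were higher and 24 lower, against 31.1% of all genes called. No trend gave 25 calls, against 19.4% of all genes. Leaving out 1 library gave 26 to 44, against 20.5 to 34.3%, the fewest without the low-glucose library of 10595408 reads (21.3% of all genes). Without the trend the calls were 3 (desaturases and electron donors, also 3 with quantile normalization), 0 (carbon supply), 5 (regulators), 1 (AMPK subunits) and 3 (activation and uptake). With 1 library left out they ranged from 3 to 6 for desaturases and electron donors, 0 to 2 for carbon supply, 1 to 2 for AMPK subunits, 1 to 2 for mitochondrial synthesis, 2 to 6 for activation and uptake and 5 to 10 for glycerolipid assembly. Calls were lost for 12 of the 45 named genes, in 51 of 675 alternative values. The sign of SLC25A1, not called, turned from -0.10 to 0.078 with quantile normalization. No pair ratio or share changed its direction; the share difference of FADS2 moved from 0.386 to 0.699 percentage points and that of ACSS2 from 0.431 to 0.663 with the longest transcript as length, and that of SCD5 from 0.111 to as little as 0.0459 (low-glucose replicate 2 left out; it was also under 0.1 with the control of 10126218 reads left out) and as much as 0.178 (low glucose, 13733477 reads, left out). The causes were not tested. Depth limits ACACB and ELOVL6 most, at 55 to 120 reads per library.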

Other observations

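Genes that use fatty acids were examined as well. Of 20 genes of glycerolipid assembly and lipid droplets, 18 were tested, 8 fell, 0 rose and 10 did not pass, with a median log2 fold change of -0.18. GPAM, the mitochondrial acyltransferase that starts glycerolipid synthesis, fell from 410 ± 38.7 to 207 ± 21.0 (log2 fold change -0.99, SE 0.112, adjusted p of 1.42e-05 by limma). The lipid droplet coat gene PLIN3 fell by 0.76 on the log2 scale (adjusted p of 8.10e-06), GPAT3, another acyltransferase, by 0.48 (adjusted p of 0.000205) and DGAT2, which makes triacylglycerol, by 0.46 (adjusted p of 0.0167). The call of DGAT2 was lost without the trend and without the low-glucose library of 10841656 or 10595408 reads (adjusted p of 0.0861 to 0.101).

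Of 16 genes of fatty acid activation and uptake, 11 were tested, 2 rose, 4 fell and 5 did not pass (median -0.07). The acyl-CoA synthetases ACSL1, ACSL3 and ACSL4 fell by 0.47, 0.44 and 0.41 on the log2 scale (adjusted p from limma of 0.000590, 0.000523 and 0.0131). SLC27A5, a transport protein with acyl-CoA synthetase activity, rose by 0.51 (adjusted p of 0.0252). The call of ACSL4 was lost without the trend and without the low-glucose library of 10841656 or 10595408 reads (adjusted p of 0.0593 to 0.124), and that of SLC27A5 in 6 alternatives (0.0539 to 0.111), among them leaving out either numbered low-glucose library (10841656 and 10595408 reads) or the control library of 10190154 reads. Another list of 8 genes was centred on mitochondrial type II fatty acid synthesis, a separate route that makes octanoate for lipoic acid. All 8 were tested and 1 fell: MCAT, the malonyl transferase, by 0.55 (SE 0.116, adjusted p of 0.00230). With a mean of at least 10 as the filter, only 6 of the 8 were tested.

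Among the markers of other cell types, CDH5, the endothelial cadherin, had 155 to 184 normalized counts in the control libraries and 9.62 to 12.1 in the low-glucose libraries (log2 fold change -3.92, SE 0.210, adjusted p of 1.74e-08 by limma). PECAM1, another endothelial marker, was below the filter. COL1A2 fell by 0.52 on the log2 scale (adjusted p of 8.24e-05), while COL1A1 averaged 5.17 and 7.75 normalized counts and did not pass.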
